A study of Mus musculus with 12 samples.

Results

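Parietal epithelial and kidney injury genes are described here in the glomeruli of diabetic and nondiabetic eNOS-/- mice given arctigenin (ATG, a lignan of Fructus Arctii) or vehicle. They are 10 of the 14096 genes in the deposited tables, taken by symbol. Cldn1, Pax8 and Cd44 stand for the parietal epithelial cells that line Bowman's capsule and for their activated state. Krt8, Krt18, Sox9, Havcr1, Lcn2, Spp1 and Clu are genes that injured kidney epithelium is known to switch on. The tables hold 1 row for each of the 10 symbols, and each gene reached a linear value of 100 in at least 1 mouse of every group, so none of them owed its listing to a single group.

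Parietal epithelial cells form the outer wall of the urinary space around the glomerular tuft and are joined by claudin-containing tight junctions. They keep transcription factors of the developing nephron such as PAX8, and they gain the hyaluronan receptor CD44 when they are activated, as in crescents and in segmental scars. Injured tubule cells show a second set of genes, among them KIM-1 (Havcr1), NGAL (Lcn2), osteopontin (Spp1), clusterin (Clu), the keratins 8 and 18, and SOX9. Several of these are also made by healthy cells of the distal nephron and collecting duct, CD44 and lipocalin 2 are made by leukocytes too, and glomeruli isolated in bulk can carry tubule fragments and leukocytes.

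All 12 animals were male mice without functional endothelial nitric oxide synthase (eNOS-/-, C57BL/6J), so the nondiabetic controls carried the same deletion. At 8 weeks of age they received streptozotocin (STZ, 50 mg/kg on 5 days) or citrate buffer. Starting 10 weeks after induction, ATG (40 mg/kg per day) or 5% DMSO was given by gavage for 8 weeks, which gave 4 groups of 3 mice at 18 weeks after induction. They are called Con_DMSO, Con_ATG, DM_DMSO and DM_ATG, where DM means diabetic, and values are listed in the order of replicates 1, 2 and 3. Values are log2 normalised read counts, and a log2 difference of 1 is a doubling.

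The reads recovered over the listed genes were 23.6 to 29.8 M (mega) per mouse. Nos3, the disrupted gene, had 846 to 2703 reads in every library, summed over the gene without regard to exons. The mean of 15 podocyte markers lay between 12.96 and 14.62 in every mouse, so podocyte RNA was present in each library. In Con_ATG replicates 1 and 3 the podocyte mean (13.41 and 12.96) lay below the proximal tubule marker mean of the same mouse (13.92 and 13.21). Tubule markers were present as well and moved with the groups. The mean of 20 proximal tubule markers was 12.08 to 12.99 in Con_DMSO, 13.21 to 13.92 in Con_ATG, 10.01 to 11.31 in DM_DMSO and 10.69 to 11.76 in DM_ATG. The mean of 20 distal nephron and collecting duct markers was 12.15 to 12.23, 12.20 to 12.99, 10.48 to 11.88 and 11.20 to 11.51 in the same order. The mean of 15 endothelial markers moved the other way, at 12.91 to 13.07 in Con_DMSO, 11.97 to 12.71 in Con_ATG, 13.32 to 13.42 in DM_DMSO and 13.35 to 13.47 in DM_ATG. No first part of a library label occurs in more than 1 group. Each diabetic group carries 1 such part, and in each nondiabetic group replicates 1 and 2 share a part while replicate 3, whose title has no number after it, has its own. The effect of such a batch and that of the group cannot be told apart. In these bulk samples, fewer cells of a type and less RNA per cell cannot be told apart.

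Stretches of promoter sequence are shown for members whose values the results turn on. Krt8 and Krt18 encode partner keratins, lie 23873 bases apart on chromosome 15 and varied together between mice, Spp1 varied with them and had the highest level, and Cd44 changed with diabetes. The sequences are RefSeq promoters on GRCm38.p6, written 5′ to 3′ on the strand of the gene, and each holds the bases before the start in the promoter table that lie ahead of any exon annotated by GENCODE. The Cd44 stretch ends a few bases inside the longer span that RefSeq gives this gene. Capitals mark matches to the motifs given after them.
Krt8, chr15:102004483-102004592, minus strand: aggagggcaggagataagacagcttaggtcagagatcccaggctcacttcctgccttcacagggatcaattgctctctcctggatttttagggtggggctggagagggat
Krt18, chr15:102027966-102028179, plus strand: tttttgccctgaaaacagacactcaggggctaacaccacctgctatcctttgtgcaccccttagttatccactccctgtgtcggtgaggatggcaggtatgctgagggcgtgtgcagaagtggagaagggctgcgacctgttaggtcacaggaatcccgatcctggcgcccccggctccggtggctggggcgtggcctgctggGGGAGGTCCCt
Spp1, chr5:104434861-104435110, plus strand: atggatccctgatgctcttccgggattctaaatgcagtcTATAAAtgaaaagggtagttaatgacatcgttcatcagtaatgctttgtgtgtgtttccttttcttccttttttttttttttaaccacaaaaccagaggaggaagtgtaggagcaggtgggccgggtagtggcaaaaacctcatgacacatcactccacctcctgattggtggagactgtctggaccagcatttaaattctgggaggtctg
Cd44, chr2:102901666-102901915, minus strand: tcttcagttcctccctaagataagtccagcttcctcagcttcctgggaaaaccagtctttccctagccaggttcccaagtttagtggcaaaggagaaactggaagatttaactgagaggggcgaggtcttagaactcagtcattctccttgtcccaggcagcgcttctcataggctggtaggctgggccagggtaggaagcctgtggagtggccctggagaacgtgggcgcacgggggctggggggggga
Windows of the 250 bases before the start were searched on both strands for 8 members (all but Sox9 and Clu). Krt18 held the single match to the NF-kB consensus among them, from 47 to 38 bases before the start, and 7.25% of all 32851 RefSeq windows of this length held one. Spp1 held the single TATAAA, from 211 to 206 bases before the start, against 12.4% of all windows. Neither the AP-1 motif TGANTCA (6.75% of all windows) nor the E-box CACGTG (6.02%) was found in the 8 windows. A match is a description of the letters and not evidence of binding.

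The members spanned almost the whole range of glomerular expression. Levels per kilobase of transcript, on the linear scale and averaged over the 12 mice, were 33779 for Spp1 and 13843 for Clu, higher than in 99.8% and 99.1% of the listed genes. Osteopontin is a secreted, integrin-binding phosphoprotein, and clusterin is a secreted chaperone. Krt8 followed at 1346 (percentile 86.3), then Lcn2 at 619 and Krt18 at 611, Pax8 at 403 and Cldn1 at 353. Havcr1 was at 134, Cd44 at 55.9 (percentile 12.1) and Sox9 at 27.8 (percentile 3.60), so Cd44 and Sox9 were among the lower-expressed genes. Reads per mouse ran from 50 to 180 for Sox9, from 80 to 601 for Havcr1 and from 140 to 388 for Cd44, whose reads were partly counted as fractions. On GRCm38, RefSeq places Cldn1 at chr16:26356645-26371839, Pax8 at chr2:24420551-24475599, Lcn2 at chr2:32384637-32387739, Cd44 at chr2:102811141-102901669 and Krt8 at chr15:101996711-102004342 on the minus strand. Krt18 is at chr15:102028216-102032026, Sox9 at chr11:112782210-112787757, Havcr1 at chr11:46739822-46779578, Spp1 at chr5:104435111-104441053 and Clu at chr14:65968483-65981548 on the plus strand. Values are sums over each whole gene.

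**Figure D1:**
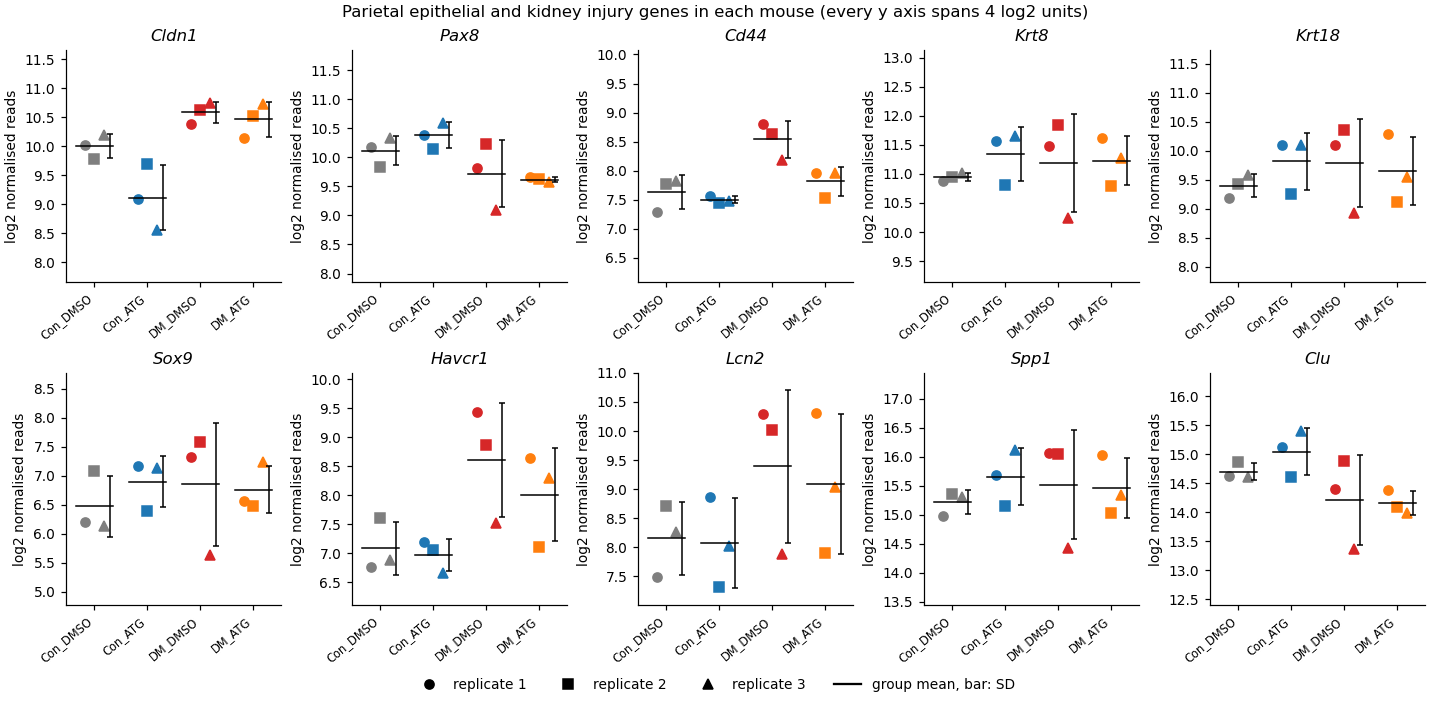
Log2 normalised read count (y axis) of the 10 genes in each of the 12 mice, by group (x axis), with the symbol giving the replicate, the line the group mean and the bar the SD (n = 3). In Cldn1 both diabetic groups lay above both nondiabetic groups except for 1 DM_ATG mouse at 10.14, in Cd44 the DM_DMSO mice lay above all others, and in Lcn2 the diabetic groups spread over more than 2 log2 units.

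With diabetes in vehicle-treated mice, Cd44 rose 1.88-fold and was the single member past the test. Its log2 values were 7.30, 7.77 and 7.82 in Con_DMSO and 8.80, 8.64 and 8.18 in DM_DMSO. All 3 diabetic mice lay above all 3 controls. The log2 difference was 0.91 ± 0.19 (SE, n = 3 per group; 95% CI 0.49 to 1.33; limma adjusted p = 0.0113). Thus 1 of 10 members was higher and 0 were lower, where 10.2% of all genes were called higher and 8.63% lower. Those 1442 higher and 1217 lower genes became 475 and 326 without Con_DMSO replicate 1, 853 and 734 without Con_DMSO replicate 2, 794 and 468 without Con_DMSO replicate 3 and 555 and 448 without DM_DMSO replicate 1. The median log2 difference of the members was 0.39, and that of all genes was 0.01. The two-sided exact permutation test of 3 against 3 mice cannot go below p = 0.10, the value that Cd44 reached (p = 0.10).

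The 3 DM_ATG mice had Cd44 values of 7.95, 7.53 and 7.96, all below the 3 DM_DMSO mice. In diabetic mice the log2 difference of ATG from vehicle was -0.73 ± 0.19 (95% CI -1.15 to -0.31). Its unadjusted p of 0.00281 in limma became an adjusted p of 0.917 over all listed genes, so it did not pass. In nondiabetic mice Cd44 was 7.56, 7.45 and 7.47 with ATG, which differed from vehicle by -0.13 ± 0.19 (limma adjusted p = 0.643). The difference between both ATG effects was -0.60 ± 0.27 (95% CI -1.19 to -0.0035; limma adjusted p = 0.386, unadjusted p = 0.0489). The group means of leukocyte markers had the same order as those of Cd44. The mean of 15 of them was 7.89 to 8.55 in Con_DMSO, 7.64 to 8.04 in Con_ATG, 8.54 to 9.01 in DM_DMSO and 7.98 to 8.80 in DM_ATG, and 5 of the 15 rose with diabetes under vehicle. With that mean as a covariate, chosen after seeing the data, the Cd44 difference was 0.59 ± 0.19 with an adjusted p of 0.119 in limma. The leukocyte mean moved with diabetes itself, so fits with it, here and below, do not separate its part well from that of diabetes. Adding the mean of all tubule markers as a covariate gave 1.21 with an adjusted p of 0.0591, and leaving out Con_DMSO replicate 1 gave 0.75 with an adjusted p of 0.0503.

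Cldn1, the tight junction protein claudin 1, showed a different order of groups. Its values were 10.02, 9.78 and 10.19 in Con_DMSO, 9.10, 9.69 and 8.56 in Con_ATG, 10.38, 10.62 and 10.75 in DM_DMSO and 10.14, 10.51 and 10.73 in DM_ATG. Con_ATG was the lowest group and overlapped with no other group, and the diabetic groups overlapped with each other. In ATG-treated mice Cldn1 rose with diabetes by 1.35 ± 0.25 on the log2 scale (2.54-fold; 95% CI 0.80 to 1.89; limma adjusted p = 0.00183). Under vehicle the groups did not overlap either, at 0.58 ± 0.25 (95% CI 0.04 to 1.13; limma adjusted p = 0.118). That difference passed in limma when only the vehicle groups entered the fit (adjusted p = 0.0341), without Con_ATG replicate 2 (adjusted p = 0.0451) and without Con_ATG replicate 3 (adjusted p = 0.0498). It was 0.38 with the number in the library label as a block, called the replicate block (limma adjusted p = 0.354). In this block the nondiabetic replicate 3 mice, which have no number, form a level of their own, and number 3 holds diabetic mice only. Levels with both diabetic and nondiabetic mice are those of replicates 1 and 2, so the block does not match replicate 3 mice. The Cldn1 difference was 0.20 with the tubule covariate (limma adjusted p = 0.809), which also took the difference under ATG to 0.86 ± 0.50 (limma adjusted p = 0.376). In nondiabetic mice ATG differed from vehicle by -0.88 ± 0.25 (limma adjusted p = 0.0615), and by -1.17 with an adjusted p of 0.00501 without Con_ATG replicate 2, the Con_ATG mouse with the highest value. It was -0.61 without Con_ATG replicate 3 (limma adjusted p = 0.183) and -0.51 without both replicate 3 nondiabetic mice (limma adjusted p = 0.315). In diabetic mice ATG and vehicle differed by -0.12 (95% CI -0.67 to 0.43). The difference between both ATG effects was 0.76 ± 0.35 (limma adjusted p = 0.394). The podocyte marker mean of Con_ATG was 13.41, 14.17 and 12.96 in replicates 1, 2 and 3, in the same order as Cldn1, and 0 of the 15 podocyte markers passed the test in this comparison at a median log2 difference of -0.60. The part of the podocyte content in the Cldn1 difference was not tested.

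Pax8, a paired-box factor kept by parietal and tubule cells, moved the other way. Its values were 10.17, 9.84 and 10.34 in Con_DMSO, 10.39, 10.15 and 10.60 in Con_ATG, 9.82, 10.24 and 9.10 in DM_DMSO and 9.66, 9.63 and 9.57 in DM_ATG. The 3 DM_ATG mice lay within 0.09 of each other and below all nondiabetic mice, whereas DM_DMSO spread over 1.14 log2 units and overlapped with both control groups. In ATG-treated mice Pax8 fell by 0.76 with diabetes (SE 0.24; 95% CI of the log2 difference -1.28 to -0.24; limma adjusted p = 0.0233). Under vehicle the difference was -0.40 ± 0.24 (limma adjusted p = 0.256), -0.66 with an adjusted p of 0.0490 without DM_DMSO replicate 2, -0.09 without DM_DMSO replicate 3 (limma adjusted p = 0.755) and -0.12 with the replicate block (limma adjusted p = 0.737). The call in ATG-treated mice was lost in limma without any one of Con_ATG replicate 1 (adjusted p = 0.0593), Con_ATG replicate 3 (0.0838), DM_ATG replicate 1 (0.0505), DM_ATG replicate 2 (0.0560) and DM_ATG replicate 3 (0.0644). It was also lost with the replicate block (-0.48, limma adjusted p = 0.121), without both replicate 3 nondiabetic mice (-0.65, limma adjusted p = 0.0956) and with the leukocyte covariate (-0.80, limma adjusted p = 0.0692). Once the tubule marker mean was a covariate, the difference was 0.55, of the opposite sign (limma adjusted p = 0.211). The tubule marker mean of the nondiabetic mice (12.15 to 13.29) did not overlap with that of the diabetic mice (10.24 to 11.59), so its part and that of diabetes cannot be told apart by this fit. GENCODE places exons of Gm13415, on the opposite strand, over exons of Pax8, and reads of both cannot be told apart without strand.

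Clu, the chaperone clusterin, fell in the same comparison as Pax8. Its values were 14.62, 14.86 and 14.60 in Con_DMSO, 15.13, 14.60 and 15.39 in Con_ATG, 14.41, 14.88 and 13.36 in DM_DMSO and 14.39, 14.09 and 13.98 in DM_ATG. All DM_ATG mice were below all nondiabetic mice. In ATG-treated mice Clu fell by 0.89 on the log2 scale (SE 0.33; 0.54-fold; limma adjusted p = 0.0437), and under vehicle the difference was -0.48 ± 0.33 (95% CI -1.20 to 0.24; limma adjusted p = 0.317). Under vehicle it ran from -0.81 without DM_DMSO replicate 2 to -0.05 without DM_DMSO replicate 3. The call in ATG-treated mice was lost in 9 of the 12 fits that left out 1 mouse, namely each Con_DMSO mouse, Con_ATG replicates 1 and 3, DM_DMSO replicate 1 and each DM_ATG mouse, with adjusted p of 0.0557 to 0.146. It was lost with the replicate block (-0.57, limma adjusted p = 0.183), in limma-voom on recovered reads (-0.88, adjusted p = 0.0501) and without both replicate 3 nondiabetic mice (-0.71, limma adjusted p = 0.174), and with the tubule covariate the difference was 0.75, of the opposite sign (limma adjusted p = 0.328).

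Among ATG-treated mice, then, 1 of 10 members was higher and 2 were lower with diabetes, beside 25.9% and 20.8% of all genes. The median of the members was -0.13, against 0.05 for all genes. The groups did not overlap for 3 of 10 members (Cldn1, Pax8 and Clu) and for 56.1% of all genes, and under vehicle for 2 of 10 (Cldn1 and Cd44) and 41.7% of all genes. For each of these members the two-sided exact permutation p was 0.10. The vehicle and the ATG comparison of diabetes share no mice, but share 1 estimate of the spread in the fit.

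**Figure D2:**
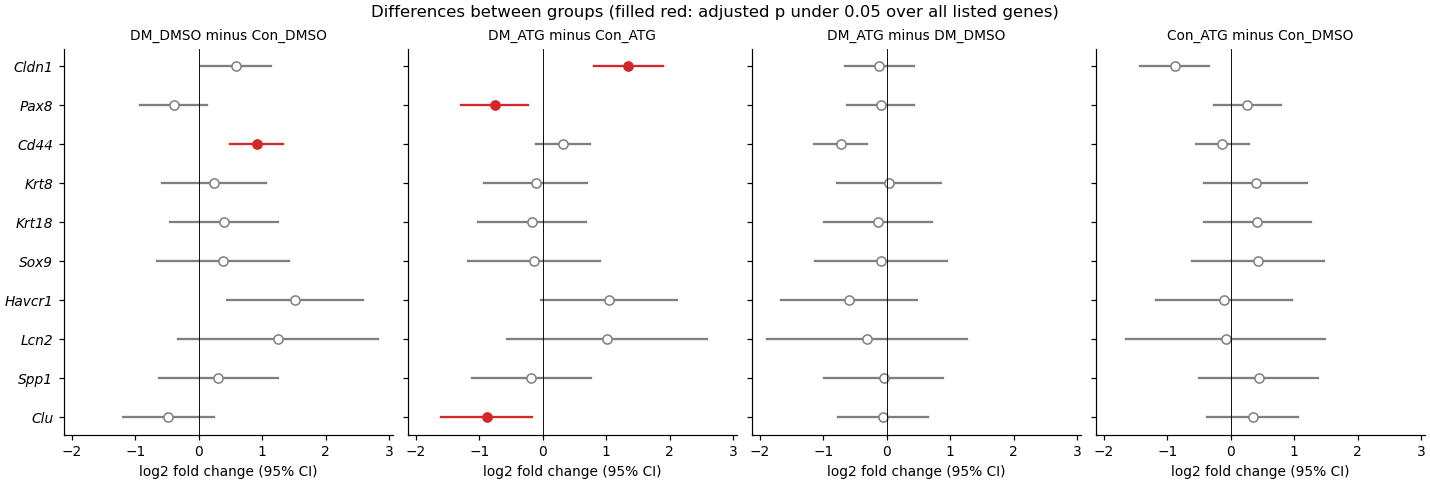
Log2 fold change (x axis) with its 95% CI for each of the 10 genes in the 4 comparisons of groups, from the limma fit of all 12 mice, with filled red points for adjusted p under 0.05. Cd44 is filled in the first panel, Cldn1, Pax8 and Clu in the second, and none in either ATG panel. The intervals of Lcn2 and Havcr1 are the widest.

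Havcr1, which encodes KIM-1, a phosphatidylserine receptor of injured proximal tubule cells, was highest in diabetic mice but did not pass the test. It was 6.76, 7.61 and 6.89 in Con_DMSO, 7.20, 7.06 and 6.67 in Con_ATG, 9.43, 8.87 and 7.52 in DM_DMSO and 8.64, 7.10 and 8.29 in DM_ATG. In each diabetic group 2 mice lay above every nondiabetic mouse, and the remaining mouse lay among the controls. The difference under vehicle was 1.52 ± 0.49 (2.86-fold; 95% CI 0.45 to 2.59; limma adjusted p = 0.0512). Without DM_DMSO replicate 3 it was 2.06 in limma (adjusted p = 0.0143), and without DM_ATG replicate 2 it stayed at 1.52 with an adjusted p of 0.0394. Under ATG it was 1.04 ± 0.49 (limma adjusted p = 0.102), and it passed at 1.04 without DM_DMSO replicate 3 (adjusted p = 0.0401) and at 1.49 without DM_ATG replicate 2 (adjusted p = 0.0333). Leaving out DM_DMSO replicate 1 gave 1.10 under vehicle (limma adjusted p = 0.178). With the leukocyte covariate the differences were 0.63 under vehicle (limma adjusted p = 0.426) and 0.18 under ATG (limma adjusted p = 0.767), and with the tubule covariate they were 2.27 and 1.98 (limma adjusted p = 0.127 and 0.304). At the same time 18 of 20 proximal tubule markers fell with diabetes under vehicle and 20 of 20 under ATG.

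Lcn2, the iron-siderophore carrier NGAL, had the widest spread of the 10. Its values were 7.48, 8.71 and 8.26 in Con_DMSO, 8.86, 7.32 and 8.01 in Con_ATG, 10.29, 10.02 and 7.88 in DM_DMSO and 10.31, 7.90 and 9.03 in DM_ATG. The highest diabetic mouse exceeded the lowest of its group 5.30-fold under vehicle and 5.31-fold under ATG. The difference with diabetes was 1.25 ± 0.71 under vehicle (95% CI -0.33 to 2.82; limma adjusted p = 0.237) and 1.01 ± 0.71 under ATG (limma adjusted p = 0.263). When 1 mouse was left out it ran from 0.80 (without DM_DMSO replicate 1) to 2.00 (without DM_DMSO replicate 3, limma adjusted p = 0.0585) under vehicle and from 0.40 (without DM_ATG replicate 1) to 1.60 (without DM_ATG replicate 2) under ATG. With the leukocyte covariate it was 0.0084 under vehicle and -0.17 under ATG (limma adjusted p = 0.996 and 0.859), and with the tubule covariate 3.15 and 3.41 (limma adjusted p = 0.109 and 0.182). The same 2 diabetic mice as for Havcr1, DM_DMSO replicate 3 and DM_ATG replicate 2, had the low values.

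The keratins of simple epithelia, Krt8 and Krt18, showed no difference past the test in any comparison. Krt8 was 10.89, 10.95 and 11.02 in Con_DMSO, 11.57, 10.81 and 11.66 in Con_ATG, 11.49, 11.85 and 10.24 in DM_DMSO and 11.63, 10.79 and 11.27 in DM_ATG. Krt18 was 9.19, 9.42 and 9.58 in Con_DMSO, 10.10, 9.25 and 10.09 in Con_ATG, 10.09, 10.35 and 8.92 in DM_DMSO and 10.28, 9.12 and 9.55 in DM_ATG. The Con_DMSO mice lay close together for Krt8, and in each of the other 3 groups 1 mouse was low in both keratins (Con_ATG replicate 2, DM_DMSO replicate 3 and DM_ATG replicate 2). The proteins form filaments as obligate pairs, and the transcripts kept a narrow ratio. Per length, Krt8 was 1.94 to 2.55 times Krt18 over the 12 mice (median 2.21), while each gene alone varied 3.05-fold and 2.70-fold within DM_DMSO. With diabetes under vehicle the differences were 0.24 (95% CI -0.58 to 1.05) for Krt8 and 0.39 (95% CI -0.46 to 1.24) for Krt18. Leaving out 1 mouse gave -0.09 (without DM_DMSO replicate 2) to 0.72 (without DM_DMSO replicate 3) for Krt8 and 0.11 to 0.83 for Krt18 with the same 2 mice. With the tubule covariate they were 1.64 ± 0.43 (limma adjusted p = 0.0543) and 1.75 ± 0.48 (limma adjusted p = 0.0626), and with the leukocyte covariate -0.20 and -0.16 (limma adjusted p = 0.807 and 0.845). A processed pseudogene, Krt8-ps on chromosome 7, and the antisense RNA Gm36026 could share reads with Krt8.

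Spp1 and Sox9 differed past the test in no comparison either. Spp1 was 14.98, 15.36 and 15.31 in Con_DMSO, 15.69, 15.15 and 16.12 in Con_ATG, 16.07, 16.05 and 14.43 in DM_DMSO and 16.04, 15.02 and 15.35 in DM_ATG. Its difference with diabetes under vehicle was 0.30 (95% CI -0.64 to 1.24; limma adjusted p = 0.647), and GENCODE lists Gm42793 over its exons on the same strand, so reads of both are uncertain. It was 1.75 with the tubule covariate, -0.39 with the leukocyte covariate and 0.75 with the replicate block (limma adjusted p = 0.0868, 0.614 and 0.236). Sox9, which marks tubule cells in repair, was 6.21, 7.08 and 6.13 in Con_DMSO, 7.16, 6.39 and 7.14 in Con_ATG, 7.32, 7.59 and 5.64 in DM_DMSO and 6.57, 6.48 and 7.23 in DM_ATG. Its difference was 0.38 (95% CI -0.66 to 1.42; limma adjusted p = 0.599), and 1.64, -0.08 and 0.54 in those 3 fits (limma adjusted p = 0.183, 0.947 and 0.568). For both genes DM_DMSO replicate 3 had the lowest value of all 12 mice. Without it the differences were 0.85 for Spp1 and 0.98 for Sox9 (limma adjusted p = 0.0928 and 0.0780), and the lowest values with 1 mouse left out were 0.027 for Spp1 (without DM_DMSO replicate 1) and 0.011 for Sox9 (without DM_DMSO replicate 2).

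ATG changed none of the 10 members past the test. In diabetic mice limma called 0 members (1 at an unadjusted p under 0.05, Cd44; 0 with limma-voom), against 0% of all genes, of which 636 had an unadjusted p under 0.05 (347 without DM_DMSO replicate 1 and 1127 without DM_DMSO replicate 3). Their log2 differences ran from -0.73 for Cd44 to 0.04 for Krt8, with a median of -0.11. They moved with single mice. Without DM_DMSO replicate 3 all 10 were negative, with Havcr1 at -1.14, Lcn2 at -1.08, Sox9 at -0.69, Spp1 at -0.59, Krt18 at -0.57, Clu at -0.49 and Krt8 at -0.44, and still none passed in limma (adjusted p from 0.491 to 0.987 over the 10 members). Without DM_DMSO replicate 2, by contrast, Pax8 (0.16), Krt18 (0.14), Sox9 (0.28), Spp1 (0.22) and Clu (0.27) turned positive. With the leukocyte covariate Havcr1 (0.03), Krt18 (0.25), Lcn2 (0.55), Sox9 (0.23), Spp1 (0.43) and Clu (0.17) turned positive. Cd44, Cldn1 and Pax8 stayed negative there, and none passed in limma. The 95% CI were -1.67 to 0.48 for Havcr1, -1.89 to 1.26 for Lcn2 and -0.99 to 0.89 for Spp1, so these values limit a change only loosely. One member, Cd44, had groups that did not overlap, as did 10.2% of all genes. In nondiabetic mice limma called 0 members (1 at an unadjusted p under 0.05, Cldn1; 0 with limma-voom) beside 5.22% of all genes. Cldn1 alone had groups that did not overlap there, where 34.4% of all genes did. For the difference between both ATG effects limma again called 0 members (1 at an unadjusted p under 0.05, Cd44; 0 with limma-voom) beside 0.546% of all genes. Those 76 higher and 1 lower genes became 6 and 0 without Con_DMSO replicate 2 or without DM_ATG replicate 3, 720 and 50 without Con_ATG replicate 2, and 8 and 0 with the replicate block. The ATG comparison in diabetic mice and the diabetes comparison under vehicle share the DM_DMSO mice.

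A comparison of the 6 diabetic with the 6 nondiabetic mice, averaged over vehicle and ATG, was added after seeing the data. It called 3 members higher and 2 lower, beside 28.2% and 23.3% of all genes. Havcr1 was higher by 1.28 ± 0.34 (2.42-fold; limma adjusted p = 0.00988), Cldn1 by 0.97 ± 0.18 (1.95-fold; limma adjusted p = 0.00115) and Cd44 by 0.62 ± 0.13 (1.53-fold; limma adjusted p = 0.00321). Clu fell by 0.68 (SE 0.23; limma adjusted p = 0.0280) and Pax8 by 0.58 (SE 0.17; limma adjusted p = 0.0144). Lcn2 was at 1.13 ± 0.51 (limma adjusted p = 0.0821), which passed at 1.51 without DM_DMSO replicate 3 (adjusted p = 0.0144) and at 1.43 without DM_ATG replicate 2 (adjusted p = 0.0366). Krt8, Krt18, Sox9 and Spp1 differed by 0.06 to 0.12 with adjusted p of 0.747 to 0.883 in limma. With the leukocyte covariate Havcr1 was at 0.40 (limma adjusted p = 0.424) and Cd44 at 0.30 (limma adjusted p = 0.162), and without both replicate 3 nondiabetic mice Havcr1 was at 1.15 (limma adjusted p = 0.0503). None of the 5 calls held with the tubule covariate, where Havcr1 was at 2.13, Cd44 at 0.95, Cldn1 at 0.53, Pax8 at 0.60 and Clu at 0.78 (limma adjusted p = 0.104 to 0.490). In that fit the calls over all genes went from 3982 higher and 3279 lower to 234 and 174. The Clu call was lost without Con_DMSO replicate 2, Con_ATG replicate 1, Con_ATG replicate 3, DM_ATG replicate 2 or DM_ATG replicate 3 (adjusted p from 0.0564 to 0.0636).

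Mice of the same group differed in these genes more than in most others. The SD within groups, pooled over the 4 groups, was 1.02 log2 units for Lcn2, 0.69 for Havcr1, 0.66 for Sox9, 0.60 for Spp1, 0.55 for Krt18, 0.53 for Krt8 and 0.46 for Clu, against a median of 0.15 over all listed genes. These 7 injury genes were above the 95th percentile of that spread (96.0 to 99.9). Cldn1 (0.35), Pax8 (0.33) and Cd44 (0.25) were at percentiles 89.3, 87.9 and 77.1. The members varied together. After removal of the group means, 36 of the 45 pairs correlated positively over the 12 mice and 9 negatively, and the 9 negative pairs were those of Cldn1. By an exact permutation of mice within groups with adjustment over the 45 pairs, which were examined after seeing the data, 13 pairs had an adjusted p under 0.05 (4 by Spearman's rho), none of them with Cldn1. Krt8 and Krt18 had r = 0.971 and rho = 0.965 (exact permutation p = 0.00154 and 0.00309, adjusted p = 0.0427 and 0.0434), and r = 0.947 without the 2 mice farthest from the median. Krt8 and Spp1 had r = 0.956 and rho = 0.916 (exact permutation p = 0.00309 and 0.00386), and 0.893 without those 2 mice. Havcr1 and Lcn2 had r = 0.887 and rho = 0.860 (exact permutation p = 0.00540 and 0.00154), and 0.743 without them. Cd44 and Havcr1 had r = 0.855 and rho = 0.804 (exact permutation p = 0.0100 and 0.0255), and 0.684 without them. The share of all gene pairs that correlate as closely within groups was not counted. All points come from libraries in which the tubule content varied too, as given next.

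**Figure D3:**
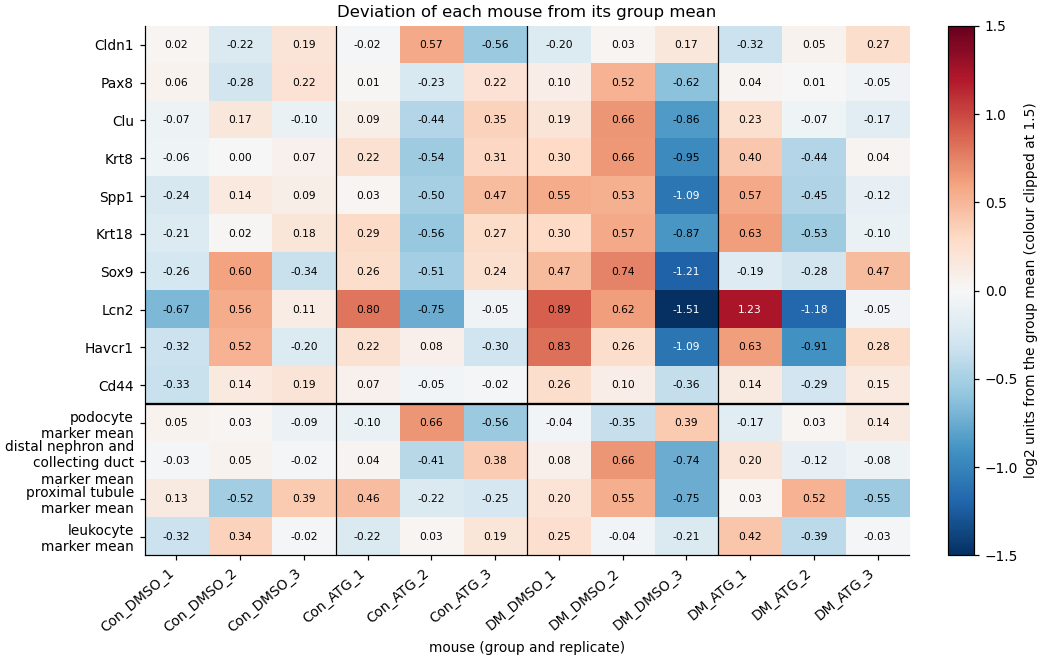
Deviation of each mouse (columns, by group) from the mean of its group in log2 units for the 10 genes and 4 marker means (rows), with red above and blue below the mean. DM_DMSO replicate 3 is low in 9 of the 10 genes and in both tubule marker means, with -1.51 for Lcn2 and -0.95 for Krt8, and Cldn1 and the podocyte marker mean are above the mean there.

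The spread of the keratins, Spp1 and Clu went with that of the distal nephron and collecting duct markers. With group means removed, r with the distal marker mean was 0.984 for Clu (rho = 0.951; exact permutation p = 0.00309 for both), 0.939 for Krt8 (rho = 0.937; exact permutation p = 0.00231 and 0.00386), 0.897 for Spp1 (rho = 0.930; exact permutation p = 0.00386 for both) and 0.874 for Krt18 (rho = 0.909; exact permutation p = 0.00540 and 0.0116). These were 4 of the 30 relations with proximal, distal and leukocyte marker means and had an adjusted p under 0.05 by exact permutation (adjusted p = 0.0386 to 0.0405 for r), and 3 of them passed by rho. The share of all listed genes that run as closely with a marker mean was not counted, so a trait of these members is not shown. Pax8 (r = 0.883 and rho = 0.699; exact permutation p = 0.0255 and 0.0386) did not pass after adjustment. Sox9 (r = 0.793 and rho = 0.692; exact permutation p = 0.0278 and 0.0471) did not pass either. Their r were 0.576 and 0.464 without the 2 mice farthest from the median. Cldn1 ran the other way, with r = -0.582 and rho = -0.741 (exact permutation p = 0.0556 and 0.0170), which did not pass, and r was -0.948 without the 2 mice farthest from the median. Without the 2 mice farthest from the median the r of Clu, Krt8, Spp1 and Krt18 were 0.951, 0.858, 0.847 and 0.797. None of the 10 members passed with the proximal tubule markers, where Havcr1 had r = 0.100 and Pax8 r = 0.734 (exact permutation p = 0.829 and 0.0340). None passed with the leukocyte markers either. The highest there were Havcr1 with r = 0.728 and rho = 0.706 (exact permutation p = 0.0332 and 0.0401) and Cd44 with r = 0.714 and rho = 0.601 (exact permutation p = 0.0586 and 0.0810).

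Relations with the podocyte marker mean were added after seeing the data. Pax8 (r = -0.749), Krt8 (-0.800), Krt18 (-0.778), Spp1 (-0.775) and Clu (-0.832) had an adjusted p under 0.05 over 40 relations by exact permutation (adjusted p = 0.0360 to 0.0480). By Spearman's rho none of the 5 passed (adjusted p = 0.0540 to 0.0802). Sox9 (r = -0.575), Lcn2 (-0.549), Cd44 (-0.336) and Havcr1 (-0.208) did not pass by either measure. Cldn1 had r = 0.796 and rho = 0.664 (exact permutation p = 0.0540 and 0.0664), which was 0.387 without the 2 mice farthest from the median and thus rested on Con_ATG replicates 2 and 3.

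**Figure D4:**
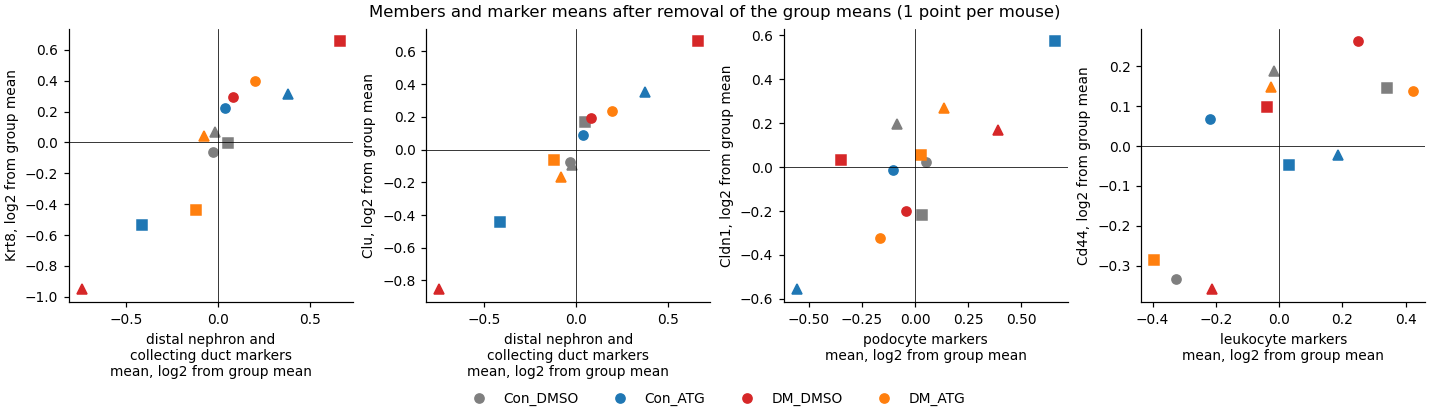
Deviations from the group mean in log2 units for Krt8 and Clu against the distal nephron and collecting duct marker mean, Cldn1 against the podocyte marker mean and Cd44 against the leukocyte marker mean (y against x axis), with 1 point per mouse coloured by group. Over the 12 mice Krt8 and Clu follow the distal markers (r = 0.939 and 0.984), with the Con_DMSO mice close to 0 on both axes, whereas the Cldn1 relation rests on 2 Con_ATG mice.

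Genes with the most similar pattern were taken from the 3 with the highest Pearson r, over the 12 mice and again with group means removed, and are a description. Those of Cldn1 included Pcdhb17 (0.985) and Epn2 (0.978), and with group means removed Pcdhb17 (0.964) and Vcl (0.962). Cd44 was nearest to Sharpin (0.948) and to the leukocyte genes Spi1 (0.947) and Nckap1l (0.940), and with group means removed to Gm6548, Trmt10a and the cytokine gene Il1b (0.917). Clu was nearest to Ckmt1 (0.982), Smtnl2 (0.980) and the collecting duct claudin Cldn7 (0.979), and with group means removed to Hsd11b2, Scnn1g and Spire2, of which the first 2 are in the distal marker list itself. Krt8 and Krt18 were each among the 3 nearest genes of the other (0.965). Within groups Krt8 was nearest to Ppl, Ctsd and Gsto1 (0.984 to 0.993) and Krt18 to Aqp6, B4galnt1 and Elf3 (0.977 to 0.983). Spp1 was nearest to Col22a1 (0.966), Krt8 and Krt18, and within groups to the epithelial mucin Muc1 (0.990), BC064078 and Cstb. Havcr1 was nearest to the interferon-inducible Oas2 (0.943), to Bud31 and to Trafd1, and within groups to Ly6e, Lpo and Aifm2 (0.929 to 0.934). Those of Lcn2 included Defb42 (0.943) and Lpo (0.941), and within groups they were Lpo, Sema3c and Elf3. Pax8 was nearest to Rogdi, Efna4 and Fam84a (0.970 to 0.978), and within groups to Mrpl30, Efna4 and Mecr. Sox9 was nearest to Ppm1d (0.922), Col22a1 and Msmo1, and within groups to Lrrc31, Blcap and Msmo1.

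Other genes of the same cells and pathways were counted in 8 lists, each to be read against the share of all genes called, which was 10.2% higher and 8.63% lower with diabetes under vehicle, 25.9% and 20.8% under ATG, and 5.22% in either direction for ATG in nondiabetic mice. For ATG in diabetic mice 0% of all genes were called, so a count of 0 in a list equals the background there. The calls for ATG in nondiabetic mice, 100 higher and 636 lower over all genes and those of the genes named next among them, depended on which mice entered. In limma with only the 6 mice of that comparison 0 genes were called (smallest adjusted p = 0.0517), 3968 having an unadjusted p under 0.05. Without both replicate 3 nondiabetic mice 0 higher and 8 lower genes were called, and leaving out 1 mouse gave from 0 higher and 60 lower (without Con_DMSO replicate 2) to 1064 and 2467 (without Con_ATG replicate 2), with 9 and 118 without Con_DMSO replicate 3. Of 13 listed parietal epithelial genes, 1 rose and 1 fell with diabetes under vehicle, with a median log2 difference of -0.25. Akap12, a kinase scaffold, rose by 1.20 ± 0.17 (limma adjusted p = 0.00310), and Cdh6, a cadherin of the early nephron, fell by 0.62 (SE 0.12; limma adjusted p = 0.00932). In ATG-treated mice 3 rose, namely Akap12 (1.00), Anxa3 (1.12) and Cd24a (0.34), and Lad1 fell by 1.07 (limma adjusted p = 0.00127 to 0.0337). ATG lowered Vcam1 in nondiabetic mice, with a log2 difference of -1.04 (limma adjusted p = 0.0436), and changed 0 of 13 in diabetic mice. Among 12 listed genes of simple epithelial keratins and desmosomes, Cdh1 (-1.23) and Dsc2 (-1.11) fell with diabetes under vehicle (limma adjusted p = 0.0276 and 0.0371). Under ATG 4 fell, among them Cdh1 (-1.42) and Dsg2 (-1.19), while the plaque and linker genes Jup (0.62) and Plec (0.57) rose (limma adjusted p = 0.00249 to 0.00826 for these). Cdh1 encodes E-cadherin, a junction protein of tubule epithelium, and 8 of 20 distal markers fell under vehicle and 17 of 20 under ATG.

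Of 11 listed CD44 ligands and partners, Mmp14, a membrane protease that cuts CD44, and Msn, which links CD44 to actin, rose with diabetes under vehicle by 0.49 ± 0.12 and 0.40 ± 0.11 (limma adjusted p = 0.0189 and 0.0262). In ATG-treated mice Mmp14 (1.06), Msn (0.85) and the hyaluronidases Hyal1 (1.00) and Hyal2 (0.90) rose (limma adjusted p = 0.000185 to 0.000800) and 1 gene fell. In nondiabetic mice ATG lowered Mmp14 and Msn, with log2 differences of -0.60 and -0.46 (limma adjusted p = 0.0209 and 0.0360). Of 9 osteopontin receptor subunits, Itga5 rose with diabetes under vehicle by 0.59 ± 0.13 (limma adjusted p = 0.0137), and 6 of 9 rose under ATG beside 25.9% of all genes, among them Itga5 (1.08), Itga9 (1.13), Itga8 (1.11) and Itga4 (0.89). ATG lowered these 4 in nondiabetic mice, with log2 differences of -0.58 for Itga5, -0.66 for Itga9, -1.09 for Itga8 and -0.85 for Itga4 (limma adjusted p = 0.00818 to 0.0338). In diabetic mice 0 of the 9 changed with ATG, beside 0% of all genes. Mesangial and vascular smooth muscle markers, among which Itga8 is counted, moved with ATG in nondiabetic mice too, with 7 of 13 lower in Con_ATG. With diabetes under ATG, 9 of these 13 and all 15 endothelial markers rose, and their part in these counts was not tested.

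Of 22 other listed injury genes, 6 rose, 0 fell and 16 did not pass with diabetes under vehicle (median log2 difference 0.50), where 10.2% of all genes rose and 8.63% fell. Under ATG 15 rose, 2 fell and 5 did not pass (median 0.65), where 25.9% of all genes rose and 20.8% fell. All 15 endothelial markers rose in that comparison as well, and their part in these counts was not tested. The lowest p under vehicle belonged to Cdkn1a, the cell cycle inhibitor p21, at 1.74 ± 0.26 (limma adjusted p = 0.00375), and to Tnfrsf12a, the TWEAK receptor, at 1.29 ± 0.28 (limma adjusted p = 0.0129). They were followed by the lipid droplet gene Plin2 at 0.55 ± 0.13 (limma adjusted p = 0.0197) and the actin-binding Tagln2 at 0.55 ± 0.13 (limma adjusted p = 0.0201). Under ATG Cdkn1a (2.11), Tagln2 (0.91), ceruloplasmin (Cp, 0.95) and Ctgf (1.72) had the lowest p (limma adjusted p = 0.000288 to 0.00114). In nondiabetic mice 3 were lower, among them Cp (-0.92) and Ctgf (-1.11), with ATG (limma adjusted p = 0.00884 to 0.0499). ATG changed 0 of the 22 in diabetic mice, at a median of -0.11, beside 0% of all genes.

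**Figure D5:**
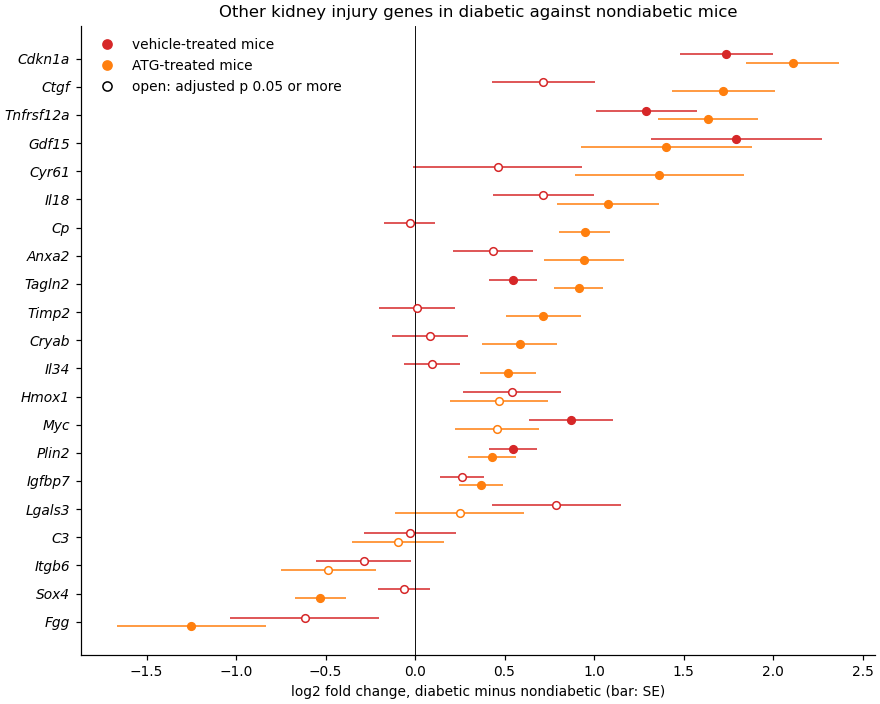
Log2 fold change with its SE (x axis) of 21 of the 22 other kidney injury genes in diabetic against nondiabetic mice given vehicle (red) or ATG (orange), with filled points for adjusted p under 0.05. Cdkn1a is the highest gene under ATG (2.11) and the second under vehicle (1.74), and more points are filled under ATG (16) than under vehicle (6).

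Of 12 listed SOX9 regulators and targets, Sox6 fell by 1.22 under vehicle and by 1.53 under ATG (limma adjusted p = 0.00619 and 0.000485). Under ATG 3 of the 12 fell, among them Egfr (-0.81), and Notch1 rose by 0.86 (limma adjusted p = 0.000327 to 0.0165). Notch1 was lower with ATG in nondiabetic mice, at -0.56 (limma adjusted p = 0.0204). Of 6 clusterin relatives and chaperones, Lrp2, the endocytic receptor megalin and a proximal tubule marker, fell by 1.70 under vehicle and by 1.99 under ATG (limma adjusted p = 0.0107 and 0.00140). Of 9 lipocalin 2 receptors, inducers and partners, the NF-kB subunit Rela rose by 0.33 ± 0.06 under vehicle and by 0.39 ± 0.06 under ATG (limma adjusted p = 0.00589 and 0.000569). Under ATG 3 rose and 2 fell, among them Nfkb1 (0.49), Cebpb (0.96) and Il17ra (-0.37), with limma adjusted p of 0.000946 to 0.0201 for these 3. Nfkb1 was lower with ATG in nondiabetic mice, at -0.36 (limma adjusted p = 0.0308). ATG changed none of the genes of these 3 lists in diabetic mice by limma, beside 0% of all genes.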

How the data were processed

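Poly-A mRNA of isolated glomeruli from 12 mice was sequenced. The sample labels also describe dissociation and EYFP sorting of cells, which the study's methods do not, and RNA is stated to come from glomeruli. The submitters' processing notes name mm10 and limma. The aligner, counter and strand setting are not given in the sources used here.

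The deposited values are log2 normalised read counts made by the authors, with 1 factor per library and no division by gene length. Of linear values under 2000, 83.4 to 84.1% were whole multiples of the value of 1 read (within 0.02 reads), which gave 23.6 to 29.8 M (mega) reads per mouse. Every listed gene reached a linear value of 100 in some mouse. Groups came from the labels, with 3 mice each, and nothing else states how replicates were kept apart. Replicates correlated at r = 0.972 to 0.994 and differed by 12.0 to 123 times the sampling variance, so none was counted as a duplicate.

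The log2 values of all 12 mice were fitted in limma 3.58.1 (R 4.3.3) with a mean-variance trend. P-values were adjusted by Benjamini-Hochberg over the 14096 genes, and genes were called at an adjusted p under 0.05. Single values were tested by two-sided exact permutation (smallest p 0.10 for 3 against 3). Correlations used deviations from group means and all 1296 permutations within groups (smallest p 0.000772). Python 3.11.15, numpy 2.4.6, scipy 1.17.1 and matplotlib 3.10.9 were used, and the scripts were tested on simulated data.

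All 10 genes were named, with the 3 genes nearest to each and up to 4 called genes with the lowest p per list and comparison. Some items that this rule selects are not reported here. The 10 genes, the 8 gene lists and the 6 marker lists were chosen with earlier results of these data known. The averaged diabetes comparison, the podocyte relations, the 45 pairs and the leukocyte covariate were chosen after seeing the data. Alternatives were a minimum of 10 reads, a pseudocount of 10, the groups of the comparison alone, a replicate block, both unnumbered nondiabetic mice left out, median-ratio scaling, limma-voom on recovered reads, no trend, tubule or leukocyte marker covariates, and each mouse left out. The replicate block used the number in the library label, with the unnumbered nondiabetic mice as a level of their own.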

Additional observations from a re-analysis of the deposited data

Results flagged for a closer look

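Itga8, the integrin subunit that pairs with beta 1 and binds osteopontin and nephronectin, was the gene of the osteopontin receptor list whose ATG effect differed between nondiabetic and diabetic mice. Its group means were 13.03 in Con_DMSO, 11.94 in Con_ATG, 12.80 in DM_DMSO and 13.06 in DM_ATG (log2, n = 3 each). ATG differed from vehicle by -1.09 ± 0.16 (SE) in nondiabetic mice (limma adjusted p = 0.00818) and by 0.25 ± 0.16 in diabetic mice (limma adjusted p = 1.00). The difference of both effects was 1.34 ± 0.22 (limma adjusted p = 0.0443), where 0.546% of all genes passed. It kept its sign in each fit that left out 1 mouse (1.18 to 1.45), with adjusted p of 0.0121 to 0.137 in limma. It passed without Con_ATG replicate 2 (0.0121), Con_ATG replicate 3 (0.0457) and DM_DMSO replicate 3 (0.0337), and was lost without each of the other 9 mice. It was also lost with the replicate block (0.0863), without both unnumbered nondiabetic mice (1.06, adjusted p = 0.131), without the trend (0.0591) and with the tubule covariate (0.0533). Itga8 is counted among the mesangial markers too, of which 7 of 13 were lower with ATG in nondiabetic mice.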

How the results depend on the processing

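No member was called for ATG in diabetic mice, nor for the difference of both ATG effects, under any alternative run. For ATG in diabetic mice 0 of all genes were called in each run as well, so 0 of 10 equals the background. For the difference of both ATG effects the share over all genes was 0.546% in the main fit. With diabetes under vehicle, 1 member was called (Cd44), 2 when only the groups of the comparison entered (Cd44 and Cldn1), 0 with the tubule covariate, 0 with the leukocyte covariate and 0 to 2 when 1 mouse was left out. With ATG in nondiabetic mice 0 were called, and 0 to 1 when 1 mouse was left out. With diabetes under ATG 3 were called, 1 (Cldn1) without both unnumbered nondiabetic mice, 0 with the tubule covariate, 2 with the leukocyte covariate (Pax8 lost), 2 in limma-voom (Clu lost) and 1 to 4 when 1 mouse was left out. For diabetes averaged over vehicle and ATG 5 were called, 2 (Cldn1 and Cd44) without both unnumbered mice, 0 with the tubule covariate, 2 (Cldn1 and Clu) with the leukocyte covariate and 4 to 6 when 1 mouse was left out. The sign turned with the tubule covariate for Pax8 under ATG (0.55) and averaged (0.60) and for Clu under ATG (0.75) and averaged (0.78). Of differences with diabetes that were not called, it turned for Pax8 (0.64) and Clu (0.82) under vehicle and for Krt8 (1.64), Krt18 (1.55), Sox9 (1.45) and Spp1 (1.63) under ATG. Of the ATG differences, none of them called, it turned for Pax8 (-0.22), Krt8 (-0.26), Krt18 (-0.21), Sox9 (-0.16), Spp1 (-0.23) and Clu (-0.26) in nondiabetic mice and for Krt8 (-0.25) in diabetic mice, and for the difference of both ATG effects for Krt8 (0.0044) and Lcn2 (0.26). In the same fit the calls over all genes went from 3649 higher and 2936 lower to 108 and 37 under ATG, and from 1442 and 1217 to 349 and 320 under vehicle, and for ATG in nondiabetic mice from 100 and 636 to 0 and 54, so a count of 0 of 10 is near the background there. With the leukocyte covariate they were 129 and 29 under vehicle and 4 and 221 for ATG in nondiabetic mice. Without both unnumbered mice 2477 and 1837 were called with diabetes under ATG, and 0 and 8 for ATG in nondiabetic mice, where 0 were called with only the groups of that comparison. When 1 mouse was left out the number of those nondiabetic ATG calls moved by over 1.5 times for each mouse but DM_DMSO replicate 2. Averaged over vehicle and ATG they went from 3982 and 3279 to 234 and 174 with the tubule covariate and to 2157 and 1951 with the leukocyte covariate. For the difference of both ATG effects 76 and 1 became 38 and 0 with the tubule covariate, 27 and 0 with the leukocyte covariate, 6 and 0 without both unnumbered mice and 18 and 1 without the mean-variance trend. Leaving out 1 mouse turned the sign of no called difference. Of those not called it turned Krt8 with diabetes under vehicle (-0.09), Krt8, Krt18, Sox9 and Spp1 with diabetes under ATG and averaged, every member but Cd44 and Havcr1 for ATG in diabetic mice, Havcr1 and Lcn2 for ATG in nondiabetic mice, and Lcn2 for the difference of both ATG effects. The tubule covariate separates diabetic from nondiabetic mice without overlap, so both cannot be told apart. The leukocyte covariate was 7.887 to 8.554 in Con_DMSO and 8.545 to 9.007 in DM_DMSO, so it and diabetes are not well separated either. The cause of the other changes was not tested. Of the correlations with marker means 4 passed, and 3 by Spearman's rho.

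Same-numbered mice of different groups are different animals, and their deviations correlated at -0.257 to 0.339. Differently numbered mice were not set beside them, so a batch shared by number was not tested. In the replicate block the unnumbered nondiabetic mice form a level of their own, and number 3 holds diabetic mice only. A change of a diabetes difference in this fit is therefore not an effect of matched replicates. With this block 1 member was called with diabetes under vehicle and 1 under ATG (Cldn1, with Pax8 and Clu lost). Averaged, 3 were called (Cldn1, Cd44 and Havcr1, with Pax8 and Clu lost). For either ATG comparison or their difference 0 members were called. Over all genes the block fit called 778 higher and 597 lower with diabetes under vehicle, 2534 and 1888 under ATG, and 2702 and 2114 averaged. It called 0 and 0 for ATG in diabetic mice, 231 and 715 for ATG in nondiabetic mice, and 8 and 0 for the difference of both ATG effects.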
